A study of Rattus norvegicus with 16 samples.

Results

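Kidney cortex from BRCA1+/- rats given ferric nitrilotriacetate (Fe-NTA) for 1 week was compared with control BRCA1+/- cortex. The arrays were taken by their sample titles, 3 treated and 2 control, which is 5 of the 16 arrays in the study. All animals were male Jcl:SD rats, a Sprague-Dawley stock, and both groups carry 1 mutated copy of BRCA1, so the mutation is shared by treated and control animals. Treatment began at 4 weeks of age and was given into the peritoneum, with the first doses at 5 mg iron/kg and the later doses of the week at 7 mg iron/kg, and the rats were killed 48 h after the final dose. The same 2 groups exist in wild-type rats, and a 3-week BRCA1+/- group went on to 10 mg iron/kg. The study started with 18 BRCA1+/- rats. The labels state neither the age nor a vehicle for the controls, so age and treatment cannot be told apart. Nor do they say that each array stands for its own animal, and the p-values then measure only the spread between these samples. The allele itself is not described in the sources used here.

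BRCA1 is needed for homologous recombination, the repair of broken DNA from an intact copy. Fe-NTA is an iron chelate that is filtered by the glomerulus and causes iron-driven oxidation of lipids, proteins and DNA, above all in the proximal tubule, the segment that takes back most of the filtered salt, sugar and amino acids and secretes organic ions. An injured proximal tubule loses transporters and metabolic enzymes, switches on injury genes such as Havcr1, and the surviving cells re-enter the cell cycle to replace those lost.

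Levels are given as log2 of the background-subtracted spot signal minus the 75th percentile of its array, so 0 is a bright probe and a difference of 1 is a doubling. A probe was called well above background by the scanner software, and where a gene was so on no array of a group, the change is a minimum ("at least" a fold) taken against the detection limit of each array, from -3.13 to -1.53 on these 5 arrays. A dim value over its array's limit was kept as it was. Where all dim values lay over their limits, the fold is an estimate and not a minimum. The share of probes well above background was 48.2% and 40.8% on the control arrays and 51.5%, 45.3% and 37.3% on the treated ones. No spot was saturated, and the number of arrays limits the precision. Across genes the 2 control arrays correlated at Pearson r 0.974, the treated arrays at 0.963 to 0.969 with each other, and treated with control arrays at 0.916 to 0.941. The first principal component of the 5 arrays held 60.3% of the variance, with the controls at -61.4 and -63.5 and the treated replicates 1, 2 and 3 at 44.5, 28.6 and 51.8. Treated replicate 2 therefore lay closest to the controls. The kidney origin of the samples could be checked against nephron genes. No marker of the medulla was set beside them, so the cortex label itself was not checked. The controls had levels of 8.61 and 8.22 for Slc34a1, the phosphate transporter of the proximal tubule and of 8.76 and 10.03 for Umod of the thick ascending limb.

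Brca1 had a level of -0.04 and -3.44 in the controls and of -0.04, -1.61 and -0.28 after 1 week. Control replicate 2 was not well above background, and the groups overlapped. The change of 1.10 ± 0.74 (log2 fold change ± SE, 3 against 2 arrays) was not called (adjusted p = 0.41), and it changed sign without control replicate 2, where it was -0.60. Neither the labels nor the files place the probe relative to the mutated stretch, and its signal therefore checks no genotype.

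After 1 week 1188 of 15962 genes tested were called in the BRCA1+/- cortex (7.44%; limma, Benjamini-Hochberg adjusted p under 0.05). Of these 677 were higher (4.24% of genes tested) and 511 lower (3.2%), and the median change of all genes was -0.04. Among the genes that rose were many of tubular injury, DNA replication and mitosis, and among those that fell were globin genes and transporters and enzymes of the proximal tubule. The levels of all treated arrays lay outside those of both controls for every called gene, as they did for 7164 genes (44.9%; 21.1% higher, 23.8% lower) called or not. A change over 2 on the log2 scale was found in 259 of the higher and 156 of the lower genes. The balance of higher and lower calls depended on the background correction, with 57.0% of calls higher in the main fit and 40.4% of 438 after normexp correction. Of 144 named calls 0 changed sign with that correction, and 71 were no longer called. With the slide as a block 1199 genes were called, and within slide 1 (1 array a group) and slide 2 (2 treated, 1 control) 127 and 28. Without control replicate 1 or 2 the count was 372 and 454, and without treated replicate 3 it was 537.

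**Figure D1:**
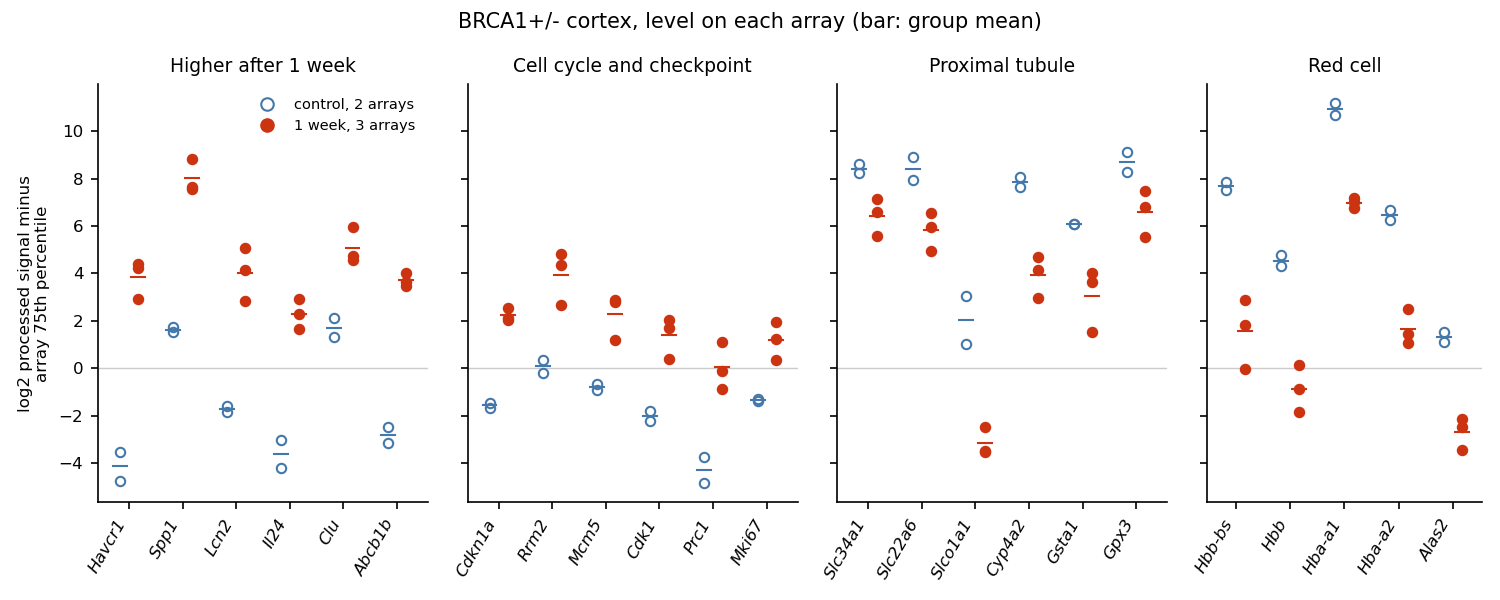
Level on each array (log2 processed signal minus the array's 75th percentile) for named genes in control (open points, 2 arrays) and 1-week (filled points, 3 arrays) BRCA1+/- cortex, with bars at the group means. Control and treated arrays do not overlap for any gene drawn; levels of Havcr1, Il24, Abcb1b, Cdk1 and Prc1 in the controls, and of Slco1a1 after treatment, were not well above background.

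Genes of tubular injury rose. Of 24 tested, 13 were called higher and 1 lower, with a median change of 1.81. Havcr1, the gene of kidney injury molecule 1, a receptor that appears on injured proximal tubule cells, had levels of -4.74 and -3.55 in the controls and 4.40, 2.92 and 4.24 after 1 week. It was at least 75.4-fold higher (adjusted p = 1.8e-07). Both controls were under the detection limit and all treated arrays were well above it. Spp1, the gene of the secreted matrix protein osteopontin, had levels of 1.52 and 1.74 in the controls and 8.83, 7.56 and 7.65 after treatment. It rose 83.8-fold, a log2 change of 6.39 ± 0.43 (adjusted p = 8.7e-07), the largest rise among genes measured in both groups. Lcn2, which binds bacterial iron carriers and is used as a urine marker of kidney injury, went from -1.59 and -1.85 to 5.06, 2.81 and 4.16. Its rise of 5.73 ± 0.57 (adjusted p = 6.6e-05) was smallest in treated replicate 2. Il24, a cytokine of the IL-10 family, was at least 25.4-fold and Cd44, a hyaluronan receptor, at least 11.2-fold higher, and the chaperone gene Clu rose by 3.37 ± 0.41 (adjusted p = 2.8e-04). The other probe of Cd44 gave 1.42. With each array left out in turn 9 to 14 injury genes were higher. Under a stricter filter, with every array of both groups well above background, 8 of 16 tested were higher.

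Several of the largest rises lay outside the injury list. Abcb1b, an efflux pump of the multidrug resistance family, was at least 68.7-fold higher (adjusted p = 2.6e-08), from -3.15 and -2.48 to 3.65, 3.48 and 4.03. Fst, the gene of follistatin, which binds and blocks activin, was at least 38.0-fold higher (adjusted p = 1.8e-07), from -2.43 and -2.94 to 2.62, 3.13 and 3.32. For both genes all treated arrays lay close together and far above both controls, and the second probes gave changes of 3.65 for Abcb1b and 3.11 for Fst. The adrenergic receptor gene Adra1d was at least 20.3-fold higher. Angptl4, an inhibitor of lipoprotein lipase, rose by 4.58 ± 0.53 (adjusted p = 1.6e-04), and Tenm4, a teneurin of the cell surface, by 4.04 ± 0.46 (adjusted p = 1.6e-04). Ms4a4a, a membrane gene best known from macrophages, rose by 3.37 ± 0.56 (adjusted p = 0.0025). Serpina3n, a protease inhibitor of the acute phase, had a rise of 5.56 ± 1.36 (adjusted p = 0.023) on 1 probe and a change of 0.08 on the other. That call was lost without control replicate 1 or 2 and without treated replicate 3.

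**Figure D2:**
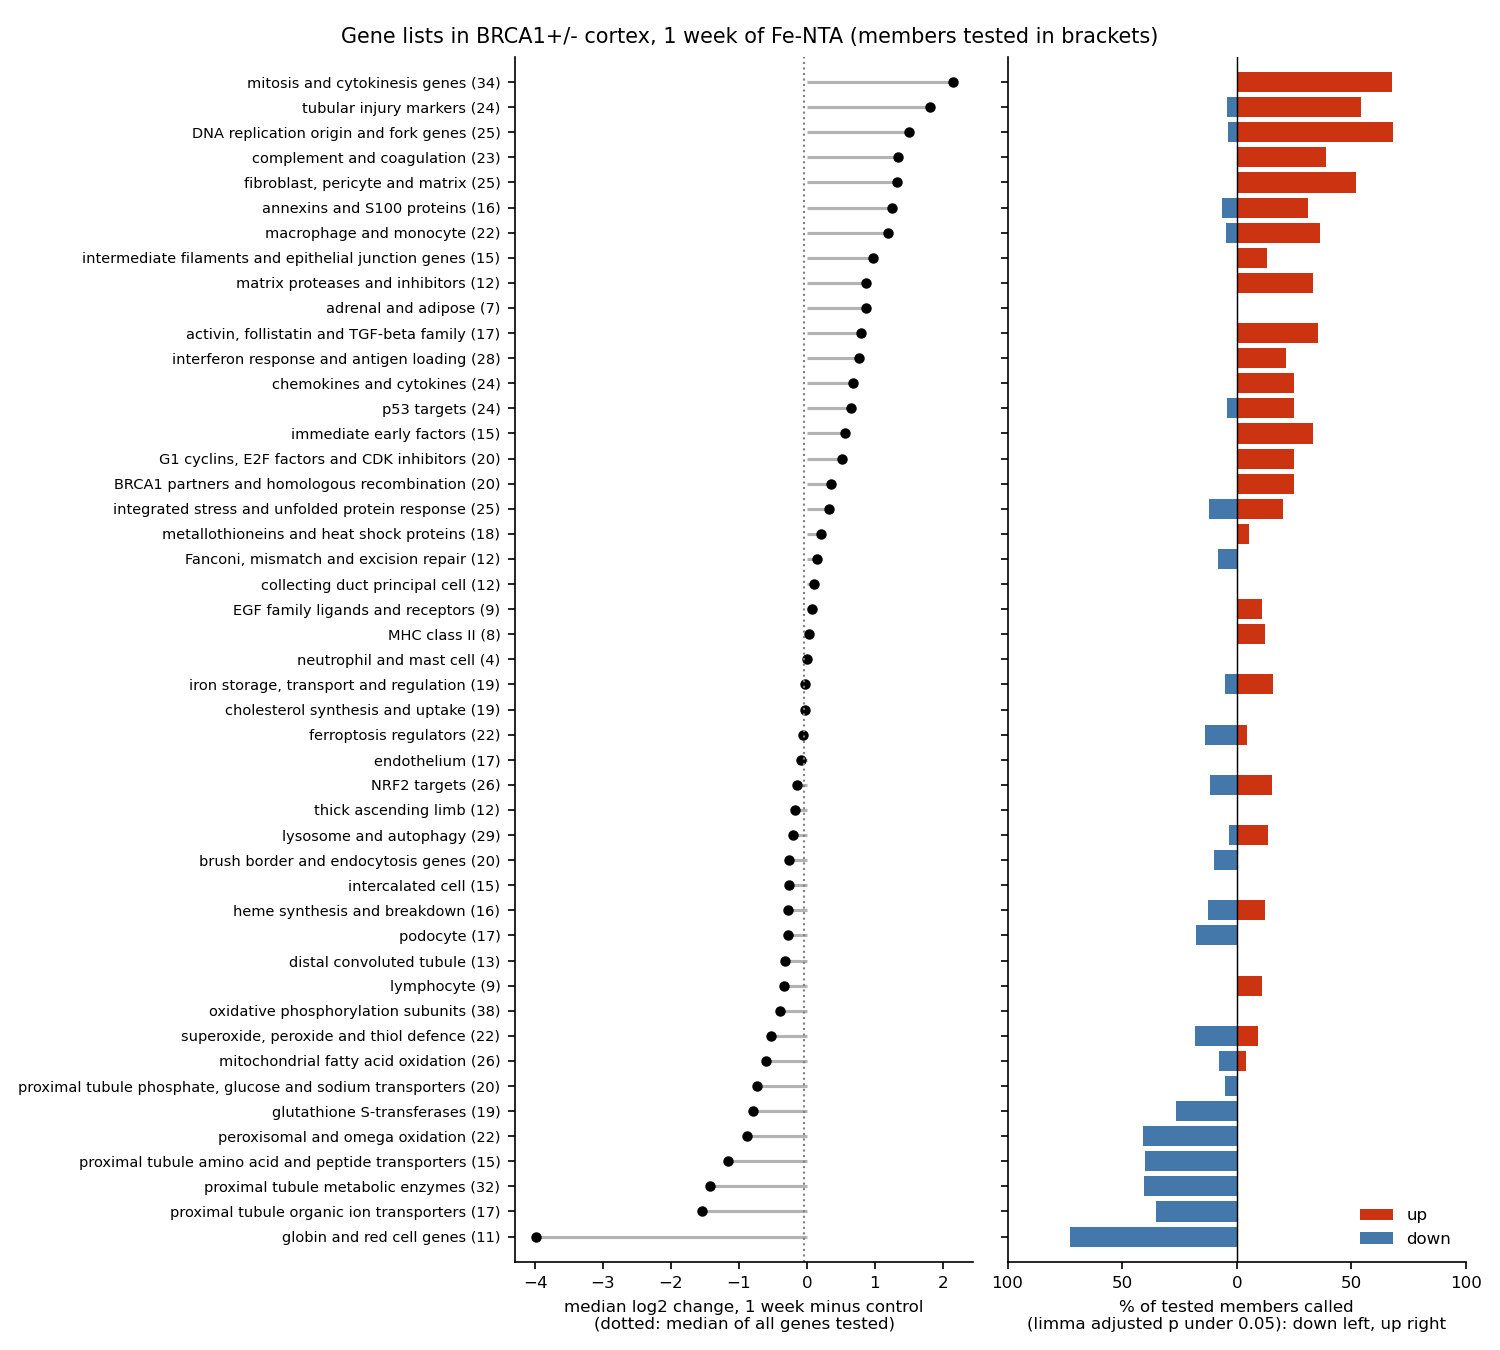
Left, median log2 change of the tested members of each gene list (1 week minus control, BRCA1+/- cortex), with the median of all genes dotted. Right, percentage of tested members called higher (red, right) or lower (blue, left); mitosis, injury and replication lists stand at the top with medians of 2.15, 1.81 and 1.50, and the globin and red cell list at the bottom with -3.99.

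DNA replication genes rose in 17 of 25 tested, with 1 lower, and a median change of 1.50. Rrm2, the regulated subunit of the enzyme that makes deoxyribonucleotides, had levels of -0.21 and 0.36 in the controls and 4.33, 2.65 and 4.81 after treatment, a rise of 3.86 ± 0.52 (adjusted p = 5.7e-04). Mcm5, a subunit of the ring helicase that opens the origin, went from -0.92 and -0.67 to 2.78, 1.20 and 2.88, a rise of 3.08 ± 0.39 (adjusted p = 3.6e-04). In both genes treated replicate 2 was the lowest of the treated arrays but above both controls. Mcm3 of the same ring rose by 3.36 ± 0.46 (adjusted p = 5.8e-04) on its brighter probe, whereas its other probe gave -0.73. Chaf1b, a chaperone that loads histones behind the fork, rose by 2.85 ± 0.45 (adjusted p = 0.0015). The replication-linked histone genes H1f5 and Hist1h2ai rose by 3.73 ± 0.40 and 3.66 ± 0.46 (adjusted p = 1.3e-04 and 3.7e-04). Pcna, the sliding clamp of the fork, had a change of 0.72 ± 0.26 (adjusted p = 0.11). The median shift of the list was 1.84, 0.69 and 1.88 in treated replicates 1, 2 and 3. The count of higher genes was 7 and 6 without control replicates 1 and 2, 9 and 7 without treated replicates 1 and 3, and 6 with normexp correction. With the stricter filter it was 11 of 19 tested.

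Mitosis and cytokinesis genes rose in 23 of 34 tested and fell in 0, with a median change of 2.15. Cdk1, the kinase that drives entry into mitosis, had levels of -2.24 and -1.78 in the controls and 1.72, 0.40 and 2.04 after 1 week. It was 10.5-fold higher (adjusted p = 1.5e-04). That value is no minimum, as both controls lay over their arrays' detection limits of -2.751 and -2.015. Cyclin A2 (Ccna2), the partner of Cdk1, was at least 6.83-fold higher (adjusted p = 5.1e-04). Ect2, which helps to set the cleavage furrow, was at least 8.08-fold higher (adjusted p = 8.7e-04). Prc1, which bundles the microtubules of the central spindle, was at least 5.32-fold higher (adjusted p = 1.6e-04), with levels of -4.85 and -3.73 in the controls and -0.12, -0.88 and 1.08 after treatment. Mki67, a coat protein of mitotic chromosomes, rose by 2.52 ± 0.43 (adjusted p = 0.0028), and its 4 probes gave 2.05 to 3.25. Top2a, the topoisomerase that untangles sister chromosomes, was at least 1.36-fold higher (adjusted p = 0.024), a call lost without either control and without treated replicate 1 or 3. The list shifted by a median of 2.54, 1.15 and 2.96 in treated replicates 1, 2 and 3, so replicate 2 again had the smallest shift. Without control replicates 1 and 2 the count was 12 and 13, and with normexp correction 9. With the stricter filter, which needs every array of both groups well above background, 6 of 14 tested were higher. Genes dim in both controls, such as Cdk1 and Prc1, were tested because a group other than the controls passed the filter.

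To show the letters that promoters of these lists share, the 250 bases before their annotated start are shown for 3 mitosis genes and, for contrast, the replication gene Mcm5 (RefSeq, GRCr8, 5′ to 3′ on the gene's strand). Capitals mark the CCAAT box, the letters TTTGAA of the cell cycle homology element of mitotic promoters, and the E2F-type letters TTTCCCGC or TTTGGCGC, on either strand; where motifs overlap they share capitals.
Cdk1, chr20:19265043-19265292, plus strand: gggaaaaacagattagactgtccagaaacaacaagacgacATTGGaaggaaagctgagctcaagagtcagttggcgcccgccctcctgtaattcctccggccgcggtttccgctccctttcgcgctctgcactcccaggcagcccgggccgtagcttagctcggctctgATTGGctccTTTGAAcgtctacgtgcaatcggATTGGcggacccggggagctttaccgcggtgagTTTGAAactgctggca
Prc1, chr1:143659231-143659480, plus strand: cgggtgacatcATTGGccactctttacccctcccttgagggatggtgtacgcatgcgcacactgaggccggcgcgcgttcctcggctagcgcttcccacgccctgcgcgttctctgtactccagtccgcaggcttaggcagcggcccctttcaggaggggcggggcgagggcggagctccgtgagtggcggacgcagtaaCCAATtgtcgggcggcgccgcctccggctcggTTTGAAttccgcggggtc
Top2a, chr10:84473094-84473343, minus strand: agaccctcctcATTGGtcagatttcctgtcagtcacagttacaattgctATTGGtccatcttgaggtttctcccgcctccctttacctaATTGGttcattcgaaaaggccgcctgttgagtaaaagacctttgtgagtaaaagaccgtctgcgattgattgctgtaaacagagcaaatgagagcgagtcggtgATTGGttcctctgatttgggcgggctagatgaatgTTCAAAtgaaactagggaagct
Mcm5, chr19:13488563-13488812, plus strand: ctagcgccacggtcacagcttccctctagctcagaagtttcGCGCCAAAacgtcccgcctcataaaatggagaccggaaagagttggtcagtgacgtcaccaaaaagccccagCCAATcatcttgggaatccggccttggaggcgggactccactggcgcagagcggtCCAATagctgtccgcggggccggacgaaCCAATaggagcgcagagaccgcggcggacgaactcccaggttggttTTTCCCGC

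In the 3 mitosis promoters TTTGAA or its reverse complement began 16, 18 and 22 bases before the start, downstream of CCAAT letters, and Mcm5 held E2F-type letters that began 8 bases before its start and no TTTGAA. Of the 34 mitosis genes tested 29 had an entry in the promoter table, and 25 of them (86.2%) held CCAAT, as did 13 of 22 (59.1%) replication promoters and 34.0% of all 33469 promoters. Among members called higher, CCAAT was found in 15 of 19 (78.9%) mitosis and 9 of 15 replication promoters, and TTTGAA in 10 of 19 (52.6%) and 1 of 15 (6.67%), so the letters were not more frequent among the mitosis genes that rose. TTTGAA was found in 16 of 29 (55.2%) mitosis promoters, in 1 of 22 (4.55%) replication promoters and in 16.2% of all. The E2F-type letters were found in 5 of 22 (22.7%) replication promoters, in 0 of 29 mitosis promoters and in 1.21% of all. These are matches of letters in a fixed window, and whether a factor was bound there was not measured.

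Some checkpoint genes rose too. Cdkn1a, the gene of p21, an inhibitor of cyclin-dependent kinases that p53 switches on, had levels of -1.47 and -1.66 in the controls and 2.04, 2.10 and 2.54 after treatment. It rose 13.9-fold, by 3.80 ± 0.37 (adjusted p = 6.6e-05), and unlike Mcm5 and Cdk1 its lowest treated array was replicate 1. Plk2, a stress-activated polo kinase, rose by 3.23 ± 0.34 (adjusted p = 1.3e-04), and the death genes Pmaip1 (Noxa) and Fas were at least 3.31- and 1.65-fold higher (adjusted p = 5.5e-05 and 0.0022). In all, 6 of 24 p53 targets were higher and 1 lower, with a median of 0.64. Cyclin E1 (Ccne1) and the transcription factor Mybl2, both of the G1 to S transition, were at least 3.62- and 3.08-fold higher (adjusted p = 5.7e-04 and 0.0012), and 5 of 20 genes of that list were higher. With each array left out in turn 4 to 6 of the p53 targets and 3 to 6 of the G1 and S genes were higher. With normexp correction the counts were 2 and 1, and with the stricter filter 2 of 17 and 0 of 12.

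Genes that act with BRCA1 in recombination were higher in 5 of 20 tested, where 4.24% of all genes were, and the list median was 0.36. With the stricter filter 2 of 14 tested were higher. Bard1, the obligate partner of BRCA1, went from -1.75 and -1.42 to 1.17, -0.56 and 1.02, a rise of 2.13 ± 0.44 (adjusted p = 0.0090) that was not called without control replicate 1. Brca2 and Rad54l were at least 1.76- and 2.45-fold higher (adjusted p = 0.035 and 0.04), and both calls were lost without control replicate 2 and without treated replicate 1 or 3, that of Rad54l also without control replicate 1. None of 12 genes of the Fanconi, mismatch and excision repair list rose and 1 fell, where 4.24% and 3.2% of all genes did. Counts of 0 and 1 in 12 say little about that list. The gene that fell was Mutyh, a glycosylase that removes adenine opposite oxidised guanine, by 2.02 ± 0.41 (limma adjusted p = 0.0083). Mutyh was not called without control replicate 1. Without each array in turn 2 to 4 recombination genes were higher, and 0 with normexp correction.

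Globin and red cell genes fell. Of 11 tested 8 were lower and 0 higher, with a median change of -3.99. Hbb-bs, a beta globin, had levels of 7.53 and 7.87 in the controls and 2.88, 1.84 and -0.04 after treatment, a fall of 70.5-fold (log2 change -6.14 ± 0.86, adjusted p = 7.4e-04). Hba-a1, an alpha globin, went from 10.69 and 11.16 to 6.77, 7.00 and 7.19, a change of -3.94 ± 0.68 (adjusted p = 0.0030). The treated arrays lay far under both controls in every globin gene named. Hbb, Hbb-b1, Hbe2, Hbbl1 and Hba-a2 had log2 changes of -5.41, -5.12, -5.12, -4.98 and -4.80. For Hba-a3 the fall was at least 15.6-fold. Near-identical globin copies can share probe signal, so these are not independent. Alas2, the heme synthesis enzyme of red cell precursors, fell by 3.99 ± 0.69 (adjusted p = 0.0031). The summed signal of the 11 genes was 2178 to 2988 times the 75th percentile in the controls and 133 to 159 times after treatment. The part that blood left in the tissue had in this result was not tested. With each array left out 7 or 8 of the 11 genes were lower.

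Some transporters and enzymes of the proximal tubule fell. Organic ion transporters were lower in 6 of 17 tested and higher in 0, with a median of -1.55, and metabolic enzymes in 13 of 32 and 0, with a median of -1.43. Fewer proximal tubule cells and less of these transcripts per cell cannot be told apart in RNA from whole cortex. Slco1a1, which carries organic anions at the brush border, had levels of 1.02 and 3.03 in the controls and -3.48, -2.46 and -3.53 after treatment. It was at least 21.0-fold lower (adjusted p = 5.1e-04), and no treated array was well above background. Slc22a6, the organic anion transporter OAT1, went from 8.89 and 7.92 to 5.96, 6.56 and 4.92, a fall of 2.59 ± 0.53 (adjusted p = 0.0085; not called without control replicate 1). The treated arrays remained bright, with replicate 3 lowest. Slc22a2, the organic cation transporter OCT2, fell by 2.95 ± 0.68 (adjusted p = 0.017; not called without control replicate 2 or treated replicate 3). Slc34a1, with 6.57, 7.15 and 5.57 after treatment, fell by 1.99 ± 0.56 (adjusted p = 0.044), a call lost without either control and without treated replicate 1 or 3. The glucose transporter Slc5a2 had a change of -1.45 ± 0.69 (adjusted p = 0.23). Of the phosphate, glucose and sodium transporters 1 of 20 was called lower and 0 higher, where 3.2% and 4.24% of all genes were. That count does not set the list apart from other genes. Of its 20 changes 13 were negative and 7 positive.

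Amino acid and peptide transporters were lower in 6 of 15, with a median of -1.16, and Cltrn, a chaperone that brings such transporters to the membrane, fell by 2.09 ± 0.37 (adjusted p = 0.0035; not called without control replicate 1). Among enzymes, Gba3, a cytosolic beta-glucosidase, fell by 2.84 ± 0.56 (adjusted p = 0.0069), with its 4 probes between -2.84 and -1.12, and Hao2, a peroxisomal hydroxy acid oxidase, by 1.75 ± 0.36 (adjusted p = 0.0094). Without control replicate 1 the calls of Gba3 and Hao2 were lost, and that of Hao2 also without control replicate 2. Spink1l, related to a trypsin inhibitor, went from 6.34 and 5.05 to 1.75, 2.63 and 0.92, a fall of 3.93 ± 0.49 (adjusted p = 3.6e-04). All 3 treated arrays lay below both controls. Endocytosis and brush border genes were called lower in 2 of 20, where 3.2% of all genes were, and 15 of the 20 changes were negative. The receptors Lrp2 and Cubn had changes of -0.99 ± 0.40 and 0.10 ± 0.25 (adjusted p = 0.15 and 0.85). The sign of the Cubn change turned within slide 1 and without control replicate 2. Without control replicates 1 and 2 the count of lower metabolic enzymes was 0 and 3, without treated replicates 1 and 3 it was 8 and 4, and with normexp correction 6. Lower amino acid transporters numbered 2 and 1 without control replicates 1 and 2 and 1 without treated replicate 1 or 3. The organic ion transporters numbered 2 without either control and without treated replicate 3, and with normexp correction.

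Peroxisomal and omega oxidation, which break down very long and dicarboxylic fatty acids in the proximal tubule, fell in 9 of 22 genes tested and rose in 0, with a median of -0.88. Cyp4a2, a fatty acid hydroxylase, had levels of 7.64 and 8.07 in the controls and 4.70, 4.12 and 2.97 after treatment, a fall of 3.92 ± 0.75 (adjusted p = 0.0061). Its relative Cyp4a3 fell by 2.12 ± 0.41 (adjusted p = 0.0061), and the thioesterase Acot5 was at least 6.09-fold and the peroxisomal reductase Decr2 at least 5.99-fold lower. The calls of both Cyp4a genes were lost without control replicate 2. Mitochondrial fatty acid oxidation had 2 of 26 genes lower and 1 higher, Ucp2, an inner membrane carrier, by 1.75 ± 0.35 (adjusted p = 0.0084; not called without control replicate 1). No subunit of oxidative phosphorylation was called among 38 tested (7.44% of all genes were called), with a median of -0.39 and a range from -0.86 to 0.17. Yet 37 of the 38 changes were negative, and 25 were lower without overlap between groups, as were 23.8% of all genes. Without control replicates 1 and 2 there were 3 and 2 lower peroxisomal genes, and without treated replicates 1 and 3 there were 5 and 4.

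Iron, heme and antioxidant genes did not move as one group. Hmox1, which breaks heme down to release its iron, had levels of -3.85 and -2.85 in the controls and -0.95, -1.10 and -0.67 after treatment and was at least 2.78-fold higher (adjusted p = 0.0086; not called without control replicate 1). Cybrd1, a ferric reductase, rose by 2.27 ± 0.33 (adjusted p = 9.7e-04) and Slc39a8, a metal importer, fell by 2.11 ± 0.43 (adjusted p = 0.0086; not called without control replicate 2). The ferritin chains Fth1 and Ftl1 had changes of -0.76 ± 0.28 and -1.01 ± 0.35 (adjusted p = 0.11 and 0.099), the transferrin receptor Tfrc of -0.56 ± 0.46 and the iron exporter Slc40a1 of -0.44 ± 0.22 (adjusted p = 0.52 and 0.26). Under quantile normalization the sign of Ftl1 turned, to 0.05. Of 19 iron genes 3 were higher and 1 lower. NRF2, the transcription factor of the antioxidant response, had 4 of 26 targets higher and 3 lower, which became 1 and 1 when control replicate 1 was left out, 2 and 0 when control replicate 2 was, 2 and 2 without treated replicate 1, 3 and 1 without treated replicate 3, and 1 and 1 with normexp correction. Srxn1, which reactivates peroxiredoxins, rose by 1.95 ± 0.28 (adjusted p = 9.4e-04), Nqo1 and Gclc had changes of 0.97 ± 0.43 and -1.40 ± 0.79 (adjusted p = 0.19 and 0.32), and Akr7a3, an aldehyde reductase, fell by 2.37 ± 0.42 (adjusted p = 0.0034; not called without control replicate 2). Slc7a11 was not well above background on every array of any group and was not tested.

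Some enzymes of peroxide and glutathione metabolism fell. Glutathione S-transferases fell in 5 of 19 and rose in 0, with a median of -0.79. Gsta1 went from 6.06 and 6.07 to 4.02, 3.63 and 1.54, a fall of 3.00 ± 0.62 (adjusted p = 0.0089), and treated replicate 3 was the lowest. Of 22 superoxide, peroxide and thiol genes 4 fell and 2 rose; the lower ones numbered 0 and 1 with control replicates 1 and 2 left out in turn, and 2 and 0 without treated replicates 1 and 3. Sod1, the cytosolic superoxide dismutase, fell by 1.33 ± 0.29 (adjusted p = 0.013), catalase (Cat) by 1.48 ± 0.38 (adjusted p = 0.03) and the secreted peroxidase Gpx3 by 2.08 ± 0.54 (adjusted p = 0.03). Gpx4, which removes lipid peroxides and guards against ferroptosis, an iron-dependent cell death, had a change of -0.72 ± 0.36 (adjusted p = 0.25). The calls of Gsta1, Sod1, Cat and Gpx3 were each lost without either control, those of Sod1, Cat and Gpx3 also without treated replicate 3, and those of Cat and Gpx3 without treated replicate 1. Without control replicates 1 and 2 the count of lower transferases was 0 and 1, without treated replicate 1 or 3 it was 2, and with normexp correction 1.

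Marker lists of the other nephron segments are short, and at 7.44% called over all genes a count of 0 in 12 to 15 says little about them. In the thick ascending limb, distal convoluted tubule, collecting duct principal cell and intercalated cell lists 0 of 12, 13, 12 and 15 genes were called, and the medians were -0.17, -0.32, 0.11 and -0.27. The summed signal of the distal convoluted tubule list was 600 to 616 in the controls and 336 to 474 after treatment, and that of the intercalated cell list 225 to 235 and 140 to 199, with no overlap in either. With array weights 2 genes of each of these lists were lower. Umod had a change of -0.80 ± 0.64, the distal chloride transporter Slc12a3 of 0.02 ± 0.27 and the water channel Aqp2 of 0.64 ± 0.25 (adjusted p = 0.51, 0.98 and 0.13). The sign of the thick ascending limb median turned under quantile normalization, without a detection filter and within slide 1, and that of Slc12a3 under median scaling. Endothelial markers were called in 0 of 17, with Pecam1 at -0.21 ± 0.40 (adjusted p = 0.82; 0.08 without treated replicate 3). Markers of the podocyte, the filtration cell of the glomerulus, fell in 3 of 17, among them the basement membrane collagens Col4a3 and Col4a4, by 1.88 ± 0.35 and 1.98 ± 0.40 (adjusted p = 0.0049 and 0.0085), while nephrin, Nphs1, had a change of -0.36 ± 0.40 (adjusted p = 0.65). Without control replicate 1 none of these 3 podocyte genes was called. The podocyte list was mixed, with a median of -0.28 and changes from -1.98 to 1.91. Without overlap between groups 6 of its 17 genes were lower and 4 higher, where 23.8% and 21.1% of all genes were.

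Matrix genes rose in 13 of 25 tested and fell in 0, with a median of 1.33. Fn1, the gene of fibronectin, an early provisional matrix protein, had levels of -0.88 and -1.03 in the controls and 2.69, 1.78 and 2.09 after treatment, a rise of 3.14 ± 0.47 (adjusted p = 0.0012). The collagen cross-linking oxidase Loxl2 rose by 1.91 ± 0.34 and the matrix glycoprotein Fbln1 by 1.90 ± 0.35 (adjusted p = 0.0034 and 0.0048; Fbln1 was not called without control replicate 2). Col1a1 had a change of 1.73 ± 0.54 (adjusted p = 0.068). Among proteases and their inhibitors 4 of 12 rose (2 without control replicate 2, 1 with normexp correction), with Timp1, which blocks matrix metalloproteinases, at 2.52 ± 0.40 and Adamts1, an aggrecan protease, at 2.48 ± 0.33 (adjusted p = 0.0016 and 5.8e-04). Vim, the intermediate filament of mesenchymal and dedifferentiated tubule cells, went from -0.03 and 0.66 to 3.52, 2.99 and 4.32, a rise of 3.30 ± 0.39 (adjusted p = 2.2e-04). Annexins and S100 proteins, which bind calcium at membranes, rose in 5 of 16 and fell in 1, with Anxa5 at 2.43 ± 0.32 and S100a11 at 2.09 ± 0.30 (adjusted p = 5.4e-04 and 8.2e-04). The matrix count was 5 and 2 without control replicates 1 and 2, 7 without treated replicate 1 and 0 with normexp correction.

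Macrophage and monocyte markers rose in 8 of 22 and fell in 1, with a median of 1.19. Of all genes 4.24% rose and 3.2% fell. With the stricter filter 4 of 16 tested markers were higher and 1 lower. Gpnmb, a glycoprotein of lysosome-rich macrophages and injured tubules, had levels of -4.82 and -4.05 in the controls and 0.82, -0.38 and 0.00 after treatment and was at least 5.77-fold higher (adjusted p = 8.2e-06). Trem2, a lipid receptor of macrophages, rose by 3.18 ± 0.55 (adjusted p = 0.0029; not called without control replicate 1). Cd68 had a change of 1.09 ± 0.37 (adjusted p = 0.087). The marker that fell, Itgam, did so by 3.83 ± 1.02 on 1 probe (adjusted p = 0.033), while its other probe gave -0.23. That call was lost without either control and without treated replicate 2 or 3. The summed signal of the list was 199 to 302 in the controls and 181 to 300.3 after treatment, so the groups overlapped in that sum. Lymphocyte markers were called in 1 of 9 tested and neutrophil and mast cell markers in 0 of 4, where 7.44% of all genes were. These lists held 27 and 21 markers, most of them not tested, so the counts say little. Without control replicates 1 and 2 the macrophage count was 1 and 2, without treated replicates 1, 2 and 3 it was 4, 4 and 3, and with normexp correction 1.

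Complement and coagulation genes rose in 9 of 23 tested and fell in 0, with a median of 1.34. C4a, a component of the classical pathway, had levels of 0.24 and 0.11 in the controls and 2.01, 2.39 and 2.29 after treatment, a rise of 2.06 ± 0.31 (adjusted p = 0.0013). The treated arrays lay close together and above both controls. C2 was at least 3.21-fold higher (adjusted p = 3.6e-04), and Fgb, the beta chain of fibrinogen, rose by 3.15 ± 0.49 (adjusted p = 0.0014). C1qc, which starts the pathway and is made by macrophages, rose by 1.66 ± 0.42 (adjusted p = 0.028) and lost its call without either control and without treated replicate 2 or 3. The macrophage list moved the same way, and its part in the complement result was not tested. Without control replicates 1 and 2 the count was 3 and 4, and with normexp correction 3.

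Some chemokine, interferon and stress genes rose. Ccl2, which draws monocytes, was at least 4.76-fold higher (adjusted p = 0.0072; not called without control replicate 2), with levels of -3.13 and -3.47 in the controls and 1.43, -1.66 and -0.17 after treatment. The treated arrays were spread widely, with replicate 2 lowest. In all, 6 of 24 chemokine and cytokine genes rose and 0 fell, where 4.24% and 3.2% of all genes did. The higher ones numbered 3 and 2 without control replicates 1 and 2, and 1 with normexp correction. With the stricter filter 1 of 9 tested was higher, so most of that count came from genes dim on some array of these groups. Among interferon and antigen loading genes 6 of 28 rose, with the immunoproteasome subunits Psmb8, Psmb9 and Psmb10 up by 1.74 ± 0.32, 1.26 ± 0.25 and 1.40 ± 0.31 (adjusted p = 0.0049, 0.0068 and 0.013). All 3 lost their calls without control replicate 1, Psmb9 and Psmb10 also without control replicate 2, and Psmb10 without treated replicate 3. The interferon count was 0 and 1 with control replicates 1 and 2 left out in turn, 3 and 2 without treated replicates 1 and 3, and 1 with normexp correction. With the stricter filter 4 of 24 interferon genes were higher. Of 25 genes of the integrated stress and unfolded protein response 5 rose and 3 fell. These counts became 2 and 0 without control replicate 1, and 1 and 0 without control replicate 2. They were 2 and 2 without treated replicate 1, 4 and 1 without treated replicate 2, and 2 and 0 without treated replicate 3. With the stricter filter 1 of 18 stress genes rose and 2 fell. Atf3, a transcription factor of that response, was at least 5.44-fold higher (adjusted p = 3.9e-04), whereas Ddit3 had a change of 0.57 ± 0.32 (adjusted p = 0.31). Fosl1, an AP-1 subunit, was at least 3.04-fold higher (adjusted p = 6.9e-04), and 5 of 15 immediate early factors rose. That count was 2 without either control, 3 without treated replicate 1 or 3, and 0 with normexp correction or the stricter filter. Metallothionein 1 (Mt1) had a change of -0.68 ± 0.40 (adjusted p = 0.35).

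Whether the response to 1 week of Fe-NTA differs between genotypes is the question that the wild-type arrays answer, and those 5 arrays share none with the BRCA1+/- comparison. In wild-type cortex 4337 genes were called (27.2%; 12.8% higher and 14.3% lower). Both genotypes called 1072 genes, which is 90.2% of the BRCA1+/- list and 24.7% of the wild-type list. Of the 1188 genes called in BRCA1+/- cortex 1183 had the same sign in wild-type cortex, and 853 had the larger change there. Across genes the log2 changes of the genotypes correlated at Pearson r 0.812, with genes not being independent replicates. The interaction, the BRCA1+/- change minus the wild-type change, was called for 0 genes by limma, with a smallest adjusted p of 0.27. At an unadjusted p under 0.05 there were 1220 genes (7.64%), of which 1109 had the smaller change in BRCA1+/- cortex. That count was 517 with normexp correction, 874 with median scaling, 1325 with quantile normalization and 2096 with array weights. The wild-type controls were also dimmer, with 75th percentile signals of 20.1 and 25.0, against 58.5 and 35.5 in the BRCA1+/- controls. The part of that in these counts was not tested. The median SE of the difference was 0.50 on the log2 scale, so a p that misses the threshold does not show equal responses.

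**Figure D3:**
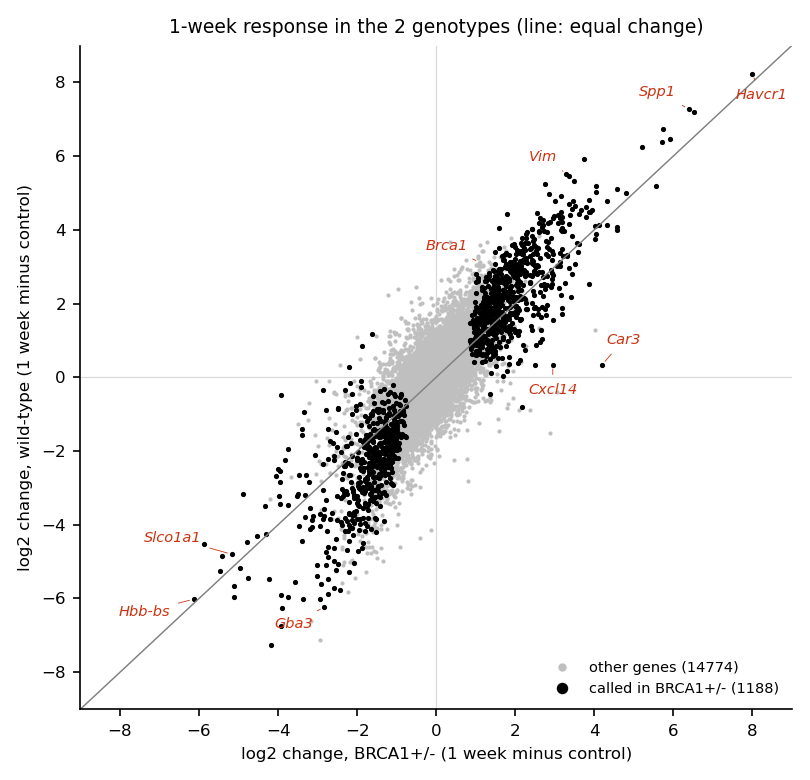
Log2 change after 1 week in BRCA1+/- cortex (x axis) against wild-type cortex (y axis) for 15962 genes, black where called in BRCA1+/- cortex (1188) and grey otherwise, with the line of equal change. Of the called genes 1183 have the same sign on both axes and 853 the larger change in wild-type cortex; Car3 and Cxcl14 lie near 0 on the wild-type axis.

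Gene groups can be set side by side in both genotypes. Over all genes 4.24% were called higher and 3.2% lower in BRCA1+/- cortex. In wild-type cortex 12.8% were called higher and 14.3% lower, so a larger wild-type count is not by itself a trait of a list. Mitosis genes rose in 23 of 34 in BRCA1+/- and 30 of 34 in wild-type cortex, with medians of 2.15 and 2.94. Proximal tubule metabolic enzymes fell in 13 and 28 of 32, with medians of -1.43 and -3.13, and organic ion transporters in 6 and 16 of 17, with medians of -1.55 and -3.09. Oxidative phosphorylation subunits were called lower in 0 and 28 of 38, with medians of -0.39 and -1.10. In BRCA1+/- cortex 37 of the 38 had a negative change and 25 did not overlap between groups (23.8% of all genes were lower without overlap), and their summed signal was 4580 to 4581 in the controls and 3295 to 3481 after treatment. The red cell list fell in 8 and 7 of 11, with medians of -3.99 and -3.23. Of single genes, Vim changed by 3.30 in BRCA1+/- and 5.53 in wild-type cortex, Gba3 by -2.84 and -6.24 and Gsta2 by -1.86 and -4.50 (interaction adjusted p = 0.29 for each). Brca1 had changes of 1.10 and 3.12 (interaction adjusted p = 0.69). No difference between the genotypes passed the test for any of these genes.

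Car3 had the larger change in BRCA1+/- cortex. It encodes a carbonic anhydrase abundant in muscle, liver and fat cells. In BRCA1+/- cortex it went from 0.00 and -1.51 to 3.35, 3.84 and 3.17, a rise of 4.20 ± 0.55 (adjusted p = 5.0e-04), and its other probe gave 2.00. In wild-type cortex it was at 2.61 and 1.86 in the controls and 2.81, 3.27 and 1.66 after treatment. The treated levels of the genotypes lay closer than the control levels, and the interaction of 3.86 ± 0.78 was not called (adjusted p = 0.27). Of 7 adrenal and adipose markers 0 were called, where 7.44% of all genes were, so that count says little. Their median change was 0.87, 5 of the 7 changes were positive, and the largest was 3.05. Their summed signal was 9.72 to 12.8 in the controls and 12.2 to 21.2 after treatment. The part of these markers in the Car3 result was not tested. Cxcl14, a chemokine, was at least 3.61-fold higher in BRCA1+/- cortex (adjusted p = 0.0076; not called without control replicate 1) and had a wild-type change of 0.34 (interaction adjusted p = 0.43).

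The 1-week state was also set against 3 weeks of treatment in BRCA1+/- rats, who were older by then and had received higher doses, so time, age and dose cannot be told apart. Both comparisons use the same 1-week arrays. Against the controls, 3 weeks gave 2529 called genes (15.8%; 9.31% higher, 6.53% lower). Between 1 and 3 weeks, of 15962 genes 49 differed (0.307%), 30 higher (0.188%) and 19 lower (0.119%) after 3 weeks. Mitosis genes were lower in 7 of 34, with a median of -1.72. Cdk1 had levels of -1.17, -1.32 and -0.85 after 3 weeks, 2.50 ± 0.34 lower than after 1 week on the log2 scale (adjusted p = 0.0062). All 3-week arrays lay between the controls and the 1-week arrays. Mki67 was at -0.53, -1.29 and -1.06, with a difference of -2.13 ± 0.39 (adjusted p = 0.034), and Rrm2 at 1.17, 1.62 and 1.73, with -2.42 ± 0.46 (adjusted p = 0.042).

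Complement genes were higher after 3 weeks than after 1 week in 3 of 23. C4a reached 4.61, 4.99 and 4.22, a difference of 2.37 ± 0.28 (adjusted p = 0.0025), and C4b 6.14, 6.40 and 5.22, a difference of 2.81 ± 0.46 (adjusted p = 0.019). Ltbp2, which binds fibrillin in the matrix, was at -1.99, -1.68 and -1.05 after 1 week and 0.93, 1.00 and 0.75 after 3 weeks, a difference of 2.47 ± 0.35 (adjusted p = 0.0089). For these genes no 3-week array overlapped a 1-week array. Some genes were well above background after 3 weeks but on no 1-week array. The citrate transporter Slc13a5 was at least 3.69-fold and the secretin receptor Sctr at least 2.87-fold higher (adjusted p = 0.0054 and 0.0011). Mmp7, a matrix metalloproteinase of injured tubules, had levels of -1.64, -4.14 and -3.42 after 1 week, of which 1 was well above background, and 1.77, 1.99 and 1.95 after 3 weeks (difference 4.97 ± 0.73, adjusted p = 0.011). Hbb-bs was at 5.05, 5.79 and 5.86, a difference of 4.01 ± 0.77 from 1 week (adjusted p = 0.042). The Havcr1 difference of -0.89 and the Spp1 difference of 1.33 were not called (adjusted p = 0.42 and 0.16). Without 1-week replicate 3 the number of called genes was 15, and within slides 1 and 2 it was 2 and 0.

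**Figure D4:**
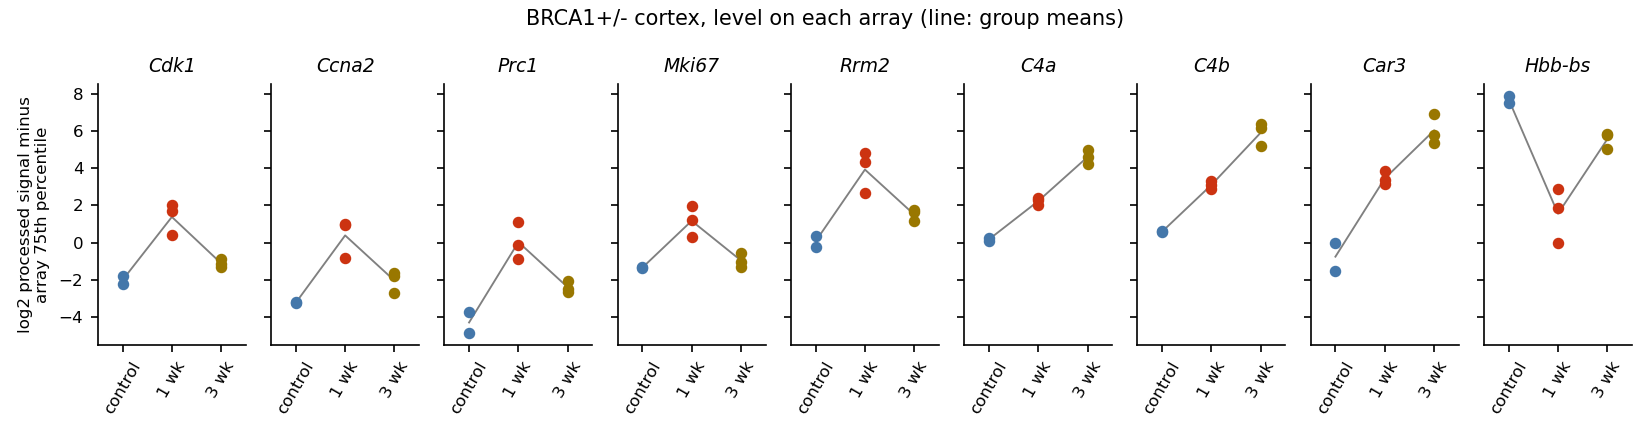
Level on each array (log2 processed signal minus the array's 75th percentile) in BRCA1+/- cortex for controls (2 arrays), 1 week (3) and 3 weeks (3), with lines through the group means. Cdk1, Ccna2, Prc1, Mki67 and Rrm2 are highest at 1 week, C4a, C4b and Car3 at 3 weeks, and Hbb-bs is lowest at 1 week.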

How the data were processed

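Cortex RNA was hybridised, 1 array per sample, to single-colour Agilent whole rat genome arrays. The scanner output, per the file headers, gives processed, mean and background intensity for every spot, unscaled between arrays, with flags and other values. Agilent Feature Extraction 10.7 made it, per the submitters' processing notes. The authors' deposited table holds log2 values, which equal the log2 processed signal minus each array's 75th percentile, with no gene centring. Control and outlier spots were left out and spots averaged to 45598 probes. Of these, 24496 took a symbol by accession and 20896 kept the file's name. A probe was kept where all its spots passed the well-above-background flag on each array of 1 group or more (20404), and the brightest stood for its gene.

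All 16 arrays were fitted with 1 mean per group (limma 3.58.1, R 4.3.3, two-sided, Benjamini-Hochberg), with 10 residual degrees of freedom and a median residual SD of 0.395. On simulated data 7 of 100 shifts of 1 and 69 of 100 of 2 log2 units were called, with 4 false calls. Lists are described by counts and medians. The comparison, members and lists were chosen with earlier results of these data known. Named genes were Brca1, the 12 largest changes and 6 largest bounds in each direction among called genes, up to 4 called members of each list by p, anchor genes, and, for the 3-week comparison, the 8 genes with the smallest p and those of the largest changes called in it. Whether replicate numbers pair the samples could not be decided (correlation of deviations 0.091 and -0.088). With 2 controls the deviations of 1 mirror those of the other, which fixes opposite signs in advance. Alternatives changed background, scaling, filter, dim values, probe choice, source, samples, slide, replicate block, array weights and each array. A few genes chosen by this rule are not reported here.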

Additional observations from a re-analysis of the deposited data

Results flagged for a closer look

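The changes of Pdgfb and Cpt1a had opposite signs in the 2 genotypes, with no overlap between control and 1-week arrays in either; in BRCA1+/- cortex alone 44.9% of all genes did not overlap. Neither gene was called in BRCA1+/- cortex (limma adjusted p = 0.14 and 0.18). Pdgfb, a growth factor for pericytes, went from -2.06 and -2.10 to -2.96, -2.35 and -3.59 in BRCA1+/- cortex, where no treated array was well above background, and from -3.23 and -2.83 to -1.43, -1.48 and -1.35 in wild-type cortex, where neither control was well above background. The difference between the responses was -2.50 ± 0.49 (limma interaction, unadjusted p = 1.4e-04, adjusted p = 0.27). Because the treated BRCA1+/- and control wild-type values are not well above background, neither the size nor the direction of that difference is measured, and with dim values set at the detection limit the BRCA1+/- change was -0.33. Cpt1a, which brings long fatty acids into mitochondria, went from 0.21 and -0.36 to 0.46, 0.79 and 0.31 in BRCA1+/- cortex and from 0.50 and 0.61 to 0.11, -0.35 and -0.39 in wild-type cortex. Its difference was 1.36 ± 0.37 (unadjusted p = 0.0022, adjusted p = 0.32). Neither difference passed the correction over 15962 genes.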

How the results depend on the processing

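The count of genes called after 1 week in BRCA1+/- cortex was 1188. It was 438 with normexp background correction (177 higher, 261 lower), 719 with median scaling, 460 without a detection filter, 710 with the stricter filter, 127 and 28 within slides 1 and 2 and 2817 with array weights, and it ran from 372 to 1108 with each array left out. With the replicate number as a block it was 761. Whether the numbers pair the samples could not be decided. The other settings gave 1078 to 1430. The interaction gave 0 calls under all settings but 1, 7 without 1-week BRCA1+/- replicate 3. The 49 genes that differed between 3 weeks and 1 week were 29 with normexp, 19 with quantile normalization, 12 without and 11 with a stricter filter, 96 with dim values at the detection limit, 25 with only the groups compared, 2 and 0 within slides 1 and 2, 774 with array weights and 15 to 83 with each array left out; median scaling moved the median of all genes to 0.21. Of 144 named calls 64 held with each array left out, 73 with normexp and 139 with the slide as a block. The cause of these shifts was not tested.

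Signs turned for Mcm3 with the stricter filter, which took its other probe (-0.73), for Ftl1 with quantile normalization (0.0513), and otherwise for genes that were not called. Within slide 1 Brca1 was -0.0002, Cubn -0.22, Nphs1 0.26, Slc12a3 -0.0923 and Slc13a5 0.69, and within slide 2 Mmp7 was -1.11 and Sctr 0.0179. With dim values at the limit Sctr and Slc13a5 were each at 0.012, with the slide as a block Slc13a5 was 0.0123, and Slc12a3 was -0.0455 with median scaling, -0.19 with the mean of probes and -0.0793 with the replicate block. With 1 array left out Brca1 ran from -0.60 to 2.80, Cubn from -0.22 to 0.43, Mmp7 from -0.40 to 1.62, Pecam1 from -0.41 to 0.0793, Slc12a3 from -0.0409 to 0.0843 and Slc13a5 from -0.35 to 0.27. The medians of 13 of 47 lists changed sign under some setting. Dim probes carry only a bound, and 2 or 3 arrays a group limit every value.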
